A study of Mus musculus with 2 samples.

Results

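Transforming growth factor beta (TGF-beta) genes were mapped over the cell classes of the newborn mouse eye cup, and their levels were compared between eyes with and without Myrf. The 10 members were chosen by symbol: the ligands Tgfb1, Tgfb2 and Tgfb3, the receptors Tgfbr1, Tgfbr2 and Tgfbr3, the latent binders Ltbp1 and Ltbp3, the TGF-beta-induced matrix protein Tgfbi and the corepressor Tgif2. Each symbol matched 1 feature, so 10 of 31053 genes in the matrices were examined. The control library was made from 3 pooled Myrf fl/fl eye cups at P0, and the mutant library from 3 pooled Rx>cre Myrf fl/fl eye cups at P0. Both genotypes carry floxed alleles of Myrf, which encodes a membrane-bound transcription factor, and only the mutant carries Rx>cre. Rx drives cre in the early eye field, so recombination covers the neural retina as well as the retinal pigment epithelium (RPE). The mesenchyme, vessels and blood cells of the eye cup come from outside that field. Before papain dissociation the optic nerve, lens and cornea had been taken away, and sequencing was of the 3′ ends of transcripts.

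Each genotype had 1 library of pooled tissue. Every difference is therefore a difference between 2 libraries, no test between genotypes was possible, and all intervals cover counting error only. The control matrix held 14305 barcodes and 79017429 unique molecular identifiers (UMIs, each marking 1 captured transcript), and the mutant matrix 12222 barcodes and 76272867 UMIs. After filtering, 12485 control and 10813 mutant cells remained, with medians of 4272 and 4821 UMIs, and 59 barcode sequences occurred in both libraries. Most kept cells fell into 12 classes with at least 50 cells in each library, named from marker genes and called "-like" where first described. Another 2683 control and 1490 mutant cells lay in clusters without a name. The marker lists of ganglion, horizontal and ciliary margin cells named no cluster, so these types are missing from the map. The RPE-like class, led by Ttr, Slc16a8 and Klk4, had 484 control cells with a median of 2507 UMIs and 199 mutant cells with a median of 11001 UMIs. In it Myrf stood at 231 counts per 1000000 UMIs (CPM) in control cells against 26.7 CPM in mutant cells, which gives a log2 ratio of -3.07 (95% interval -3.51 to -2.75). Reads at the 3′ end need not come from the deleted exons, so this is a check of transcript level only. The pools also differed in sex-linked transcripts: Xist without any Y-linked UMI was found in 891 control and 7618 mutant cells, and a Y-linked UMI without Xist in 6406 control and 1516 mutant cells. Sex and genotype cannot be told apart from the pooled values, and values by kind of cell are given for the 8 members measured in RPE, for the members that differed in mesenchyme and for each member past 1.5-fold in another class.

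TGF-beta ligands are secreted in a latent form, folded together with their own propeptide. Latent TGF-beta binding proteins tie this complex to fibrillin in the extracellular matrix, and integrins or proteases release the ligand. The freed ligand binds the type II receptor, which recruits and activates the type I receptor, and this in turn phosphorylates SMAD proteins that enter the nucleus. In the eye, TGF-beta ligands from retina and mesenchyme shape the vasculature, the vitreous and the sclera, and TGF-beta can drive RPE cells toward a mesenchymal state.

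The ligands Tgfb1 and Tgfb2 had quite different sources in the eye cup, and their upstream sequences differ as well, so both are shown. The letters are the 250 bases before the RefSeq start of each gene on GRCm38.p6, 5′ to 3′ on the strand of the gene, and they span chr7:25686752-25687001 on the plus strand for Tgfb1 and chr1:186705990-186706239 on the minus strand for Tgfb2. Capitals mark each match to the TATA box letters TATAAA, to the E-box letters CACGTG and to the GC box letters GGGCGG, on either strand.
Tgfb1: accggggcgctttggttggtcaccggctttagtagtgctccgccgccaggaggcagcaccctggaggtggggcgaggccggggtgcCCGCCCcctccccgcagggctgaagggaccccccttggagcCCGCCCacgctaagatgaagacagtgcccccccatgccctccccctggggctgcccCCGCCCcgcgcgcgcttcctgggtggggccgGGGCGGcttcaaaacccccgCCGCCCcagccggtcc
Tgfb2: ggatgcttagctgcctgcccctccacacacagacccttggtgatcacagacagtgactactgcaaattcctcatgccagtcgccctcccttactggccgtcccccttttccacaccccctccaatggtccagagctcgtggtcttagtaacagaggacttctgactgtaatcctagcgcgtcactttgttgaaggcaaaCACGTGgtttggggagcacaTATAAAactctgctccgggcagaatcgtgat
The Tgfb2 window held TATAAA at 31 to 26 bases before the start and CACGTG at 51 to 46 bases before it. The Tgfb1 window held 5 GGGCGG boxes on either strand and no TATAAA, with a GC content of 75.2% against 53.6% for Tgfb2. Of 32841 windows of the same length, 12.4% held TATAAA, 6.02% held CACGTG and 32.7% held GGGCGG, counting both strands. No other member's window held TATAAA or CACGTG, and 8 of the 10 members had a window in the table. The letters CTGGCAC and CTGGTAC, searched on both strands because Myrf family proteins are known to bind such cores, were in 4.19% and 1.83% of all windows and in no member's window. A match of this kind is a description of the sequence and not a binding site.

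The map of sources was alike in the libraries: Tgfb1 was highest in endothelial-like and macrophage-like cells, Tgfb2 in retinal progenitor-like cells, and Tgfb3 in mesenchyme-like cells. Tgfb1, the ligand of blood vessels and immune cells (chromosome 7, 25687002 to 25705077), stood at 187 CPM (172 to 202) in control endothelial-like cells and 204 CPM (185 to 226) in mutant ones. Macrophage-like cells followed with 154 and 174 CPM, and the intervals of these neighbours overlapped in each library. Pericyte-like cells came next with 55.9 and 62.6 CPM, separate from macrophages in both libraries, and mesenchyme stood at 17.7 and 17.3 CPM. Retinal progenitor-like cells held 9 control and 4 mutant Tgfb1 UMIs in all, 0.502 and 0.181 CPM. RPE-like cells held 7 and 8 UMIs, which was too few for a comparison. Endothelial-like cells thus supplied 47.7% of control and 49.6% of mutant Tgfb1 UMIs.

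**Figure D1:**
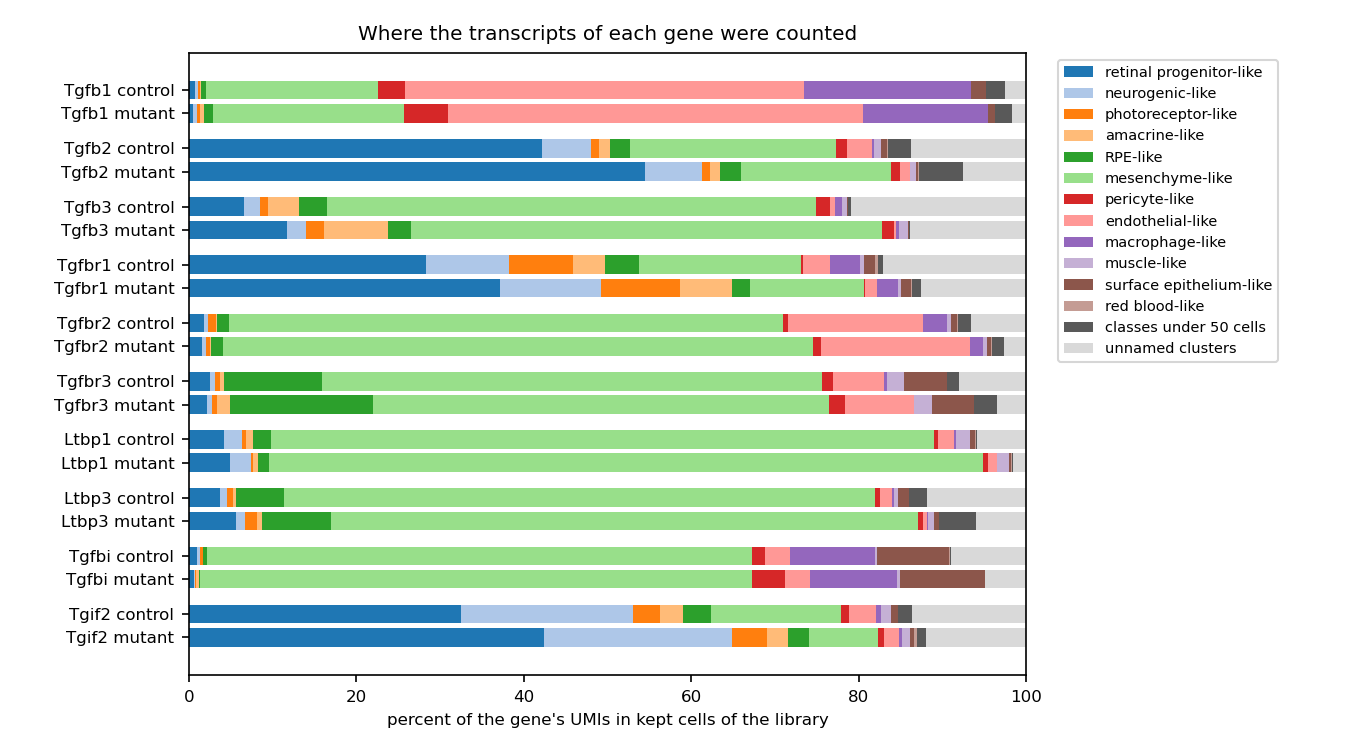
Share of each member's UMIs (percent of UMIs in kept cells) that came from each cell class, with control and mutant bars stacked side by side. Mesenchyme-like cells held 54.5% or more of the UMIs of Tgfb3, Tgfbr2, Tgfbr3, Ltbp1, Ltbp3 and Tgfbi in each library, retinal progenitor-like cells the largest share of Tgfb2, and endothelial-like cells that of Tgfb1.

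Tgfb2, the ligand whose loss in mice disturbs eye development (chromosome 1, 186622792 to 186705989, minus strand), was highest in retinal progenitor-like cells, the dividing cells of the neural retina. Its level there was 142 CPM (137 to 148) in control cells and 171 CPM (166 to 177) in mutant cells, and these cells held 42.2% and 54.5% of all Tgfb2 UMIs. Pericyte-like cells stood at 109 and 115 CPM and mesenchyme at 97.2 and 122 CPM, and these neighbours overlapped in each library. Within the retina the level was lower in later classes. Neurogenic cells, which are leaving the cell cycle, stood at 58.3 and 68.9 CPM, amacrine-like cells at 26.1 and 19.3 CPM and photoreceptor-like cells at 13.3 and 12.7 CPM. Among the neurogenic clusters, the one led by Dll1 stood at 111 and 123 CPM. A class of only 31 control and 33 mutant astrocyte-like cells, led by Cartpt and Pax2, was too small for the map and stood above the 12 classes in Tgfb2 at 372 and 566 CPM. Red blood-like cells, which should lack the gene, held 3.21 CPM in control cells and 12.2 CPM in mutant cells. The red blood markers summed to 851498 and 835740 CPM in these cells, so other genes share few of their UMIs. Free transcript can stand higher in other classes than in these cells.

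Tgfb3, the ligand known for palate and lung development (chromosome 12, 86056745 to 86079041, minus strand), was a mesenchymal transcript also found in 1 cluster of amacrine-like cells. Unnamed clusters with amacrine genes among their leading genes were not compared. Mesenchyme-like cells stood at 69.6 CPM (65.5 to 73.9) and 79.8 CPM (74.4 to 85.5) and held 58.4% and 56.2% of its UMIs. Pericyte-like cells at 39.0 and 33.6 CPM and amacrine-like cells at 22.5 and 26.1 CPM followed and overlapped. Among amacrine-like cells the transcript was split by cluster. The cluster led by Klhl35 stood at 42.2 and 53.5 CPM, whereas the cluster led by AI593442 stood at 0.69 and 2.18 CPM. RPE-like cells stood at 19.0 and 16.2 CPM, and no Tgfb3 UMI was found in red blood-like cells, which allows a level of up to 3.21 CPM in control cells and 3.33 CPM in mutant cells.

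**Figure D2:**
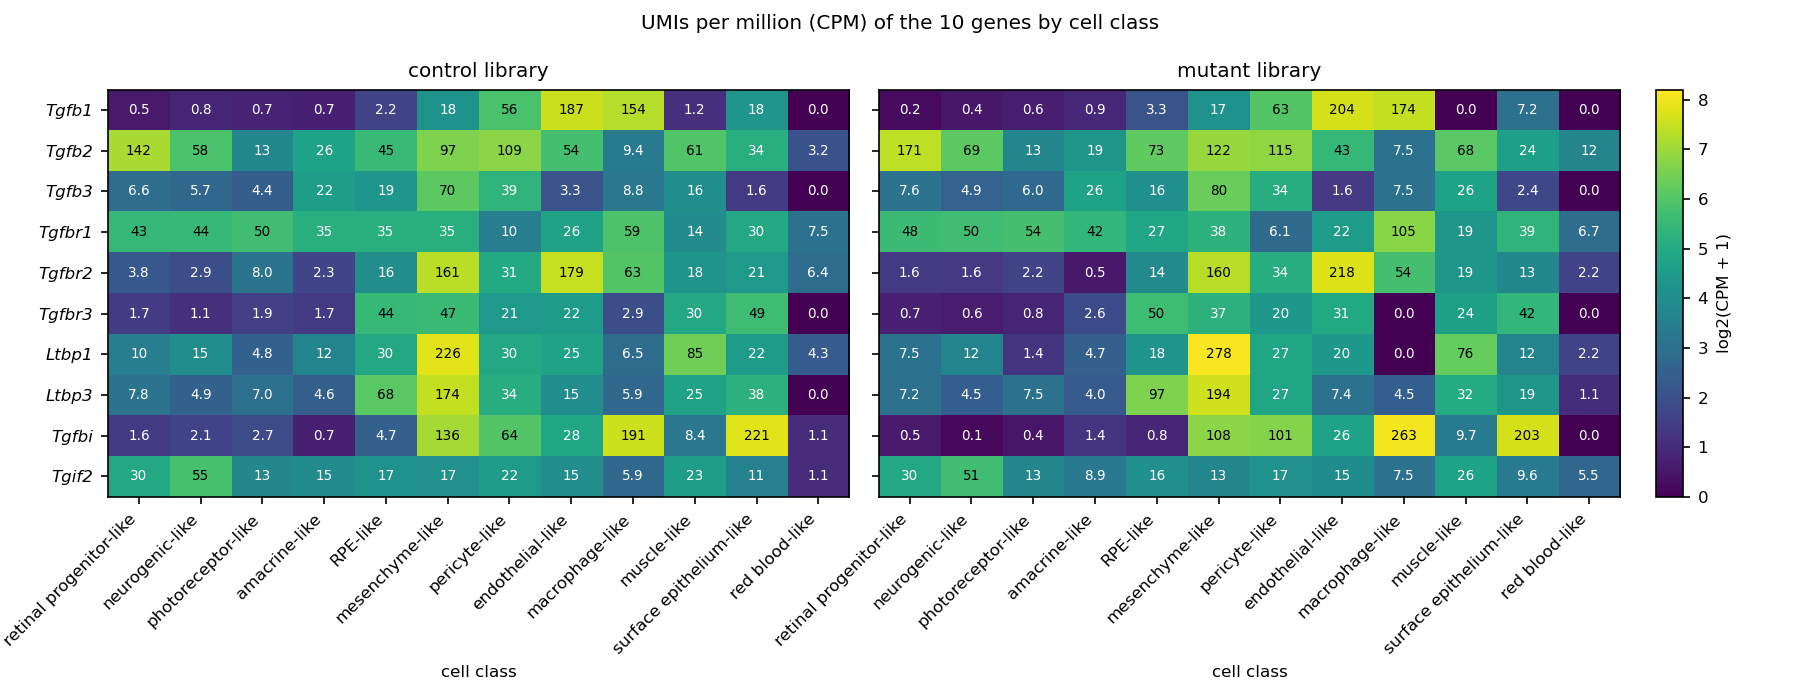
Level of the 10 members (CPM, on a log2 scale with 1 CPM added) in the 12 cell classes of the control and the mutant library. The columns of a gene look alike in the libraries, with Ltbp1, Ltbp3, Tgfbr2 and Tgfbi high in mesenchyme and Tgfb1 high in endothelial-like and macrophage-like cells.

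The type I and type II receptors were spread very differently. Tgfbr1, the type I receptor kinase (chromosome 4, 47353222 to 47414931), was spread over most classes at similar levels. In the control, macrophage-like cells stood at 59.3 CPM, neurogenic cells at 44.5 CPM, retinal progenitor-like cells at 43.3 CPM and mesenchyme at 34.6 CPM, and photoreceptor-like cells lay between the first 2 of these. Each of the 4 highest overlapped its neighbour. The mutant order was the same for the 4 highest, with macrophage-like cells apart at 105 CPM. RPE-like cells stood at 34.8 CPM in control cells and 27.1 CPM in mutant cells, against 7.50 and 6.66 CPM in red blood-like cells.

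Tgfbr2, the type II receptor that binds the ligand first (chromosome 9, 116084293 to 116175360, minus strand), was instead concentrated outside the neural retina. Endothelial-like cells stood at 179 and 218 CPM and mesenchyme at 161 and 160 CPM, with mesenchyme holding 66.2% and 70.5% of its UMIs. Macrophage-like cells followed at 62.8 and 54.1 CPM. Retinal progenitor-like cells had 3.79 and 1.63 CPM and RPE-like cells 15.5 and 13.7 CPM, while red blood-like cells held 6.43 and 2.22 CPM. These red blood levels rest on 6 and 2 UMIs, and their intervals overlapped those of retinal progenitors (2.94 to 4.81 and 1.14 to 2.25 CPM), so Tgfbr2 did not stand above red blood-like cells in the progenitors of either library.

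Tgfbr3, or betaglycan, the co-receptor that presents Tgfb2 to the type II receptor (chromosome 5, 107106570 to 107289629, minus strand), had its highest levels among the 12 classes in surface epithelium, mesenchyme and RPE. The control levels were 48.8, 47.0 and 44.1 CPM and the mutant levels 41.9, 37.2 and 49.6 CPM, and these 3 classes overlapped as neighbours in each library. RPE-like cells held 11.8% of control and 17.1% of mutant Tgfbr3 UMIs, the largest share of any member in RPE. The 3 predicted genes that overlap Tgfbr3 on its strand could take part of its reads.

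Cells with a UMI of Tgfbr1 and of Tgfbr2, the pair needed to pass on the signal, were rare once depth was made equal. With each cell thinned to 1000 UMIs and shallower cells left out, they made up 0.676% of control mesenchyme-like cells (9 of 1332, 0.309 to 1.28) and 0.719% of mutant ones (6 of 835, 0.264 to 1.56). At 2500 UMIs the shares in mesenchyme were 3.19% (40 of 1254) in the control and 2.55% (21 of 822) in the mutant. The unthinned shares were 22.2% and 27.9%, and thinning left out 19 control and 6 mutant mesenchyme-like cells, but 98 of 484 control and 23 of 199 mutant RPE-like cells. Thinned RPE-like cells gave 0 of 386 in the control, which allows a share of up to 0.777%, and 0 of 176 in the mutant, which allows up to 1.70%. These limits hold for cells with a UMI of each at that depth, since thinning to 2500 UMIs gave 3 of 242 control cells (1.24%, 0.256 to 3.58) and 1 of 154 mutant cells (0.649%, 0.0164 to 3.56). The unthinned shares in RPE were 2.69% and 6.53%, at median depths of 2507 and 11001 UMIs. Endothelial-like cells reached 12.3% and 14.3% and macrophage-like cells 8.02% and 14.7% unthinned, against 0.335% and 0.165% of retinal progenitor-like cells and 0 red blood-like cells. The shares moved with depth, so the genotypes are not ranked by them.

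The latent binders marked the mesenchyme. Ltbp1, which anchors the latent complex in the matrix (chromosome 17, 75005568 to 75392512), stood at 226 CPM (218 to 233) in control and 278 CPM (268 to 289) in mutant mesenchyme-like cells, and these held 79.1% and 85.4% of its UMIs. Muscle-like cells came next with 85.4 and 75.7 CPM, apart from the classes above and below in both libraries. RPE-like cells stood at 30.2 CPM in control cells and 17.9 CPM in mutant cells. A predicted gene overlaps Ltbp1 on the same strand. Of its 2 RefSeq windows, 1 held TGACGTCA, the cyclic AMP response element, at 73 to 66 bases before the start, letters found in 1.55% of all windows.

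Ltbp3, a smaller relative with the same anchoring role (chromosome 19, 5740904 to 5758532), stood at 174 CPM (168 to 181) in control and 194 CPM (185 to 202) in mutant mesenchyme, which held 70.5% and 70.1% of its UMIs. RPE-like cells were second in each library, at 67.8 CPM (59.1 to 77.4) in control cells and 97.1 CPM (85.0 to 110) in mutant cells. Surface epithelium stood at 37.6 and 19.1 CPM. Of the 12 classes, RPE was separate by its interval from mesenchyme above and from the next class below in each library.

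Tgfbi, a matrix protein named for its induction by TGF-beta and known in the cornea (chromosome 13, 56609523 to 56639562), was highest in surface epithelium and macrophages. Surface epithelium-like cells stood at 221 CPM (196 to 249) and 203 CPM (174 to 236), and macrophage-like cells at 191 and 263 CPM. Mesenchyme followed at 136 and 108 CPM and held 65.1% and 66.0% of its UMIs. RPE-like cells held 15 control and 2 mutant UMIs, 4.66 and 0.833 CPM. Tgif2, a homeodomain corepressor that binds SMADs (chromosome 2, 156840007 to 156855570), was the opposite case, with its highest level in neurogenic cells at 55.1 CPM (49.3 to 61.3) and 50.6 CPM (45.4 to 56.2). Retinal progenitor-like cells stood at 29.8 CPM in both libraries and held 32.5% and 42.4% of its UMIs.

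The mesenchyme itself was not uniform, and the members divided its 5 clusters. The cluster led by Acan, a cartilage proteoglycan gene, was high in Tgfb2 (183 and 230 CPM), Tgfb3 (176 and 192 CPM), Ltbp3 (353 and 371 CPM) and Tgfbi (339 and 246 CPM). The cluster led by Aldh3a1 was highest in Ltbp1, at 397 and 421 CPM. The cluster led by Clec3b was highest in Tgfbr2, at 293 and 308 CPM, and in Tgfbr3, at 91.7 and 79.5 CPM. Of the 5 clusters, Tgfb2 and Tgfb3 were thus highest in that led by Acan in each library, and Tgfbr2 in that led by Clec3b. Tgfb1 was highest in the cluster led by Lypd1, at 31.2 and 33.4 CPM. An unnamed cluster of 86 control and 42 mutant cells led by Tnmd, a tendon gene, was higher still in Tgfb2, at 271 and 279 CPM, and in Tgfb3, at 251 and 266 CPM.

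**Figure D3:**
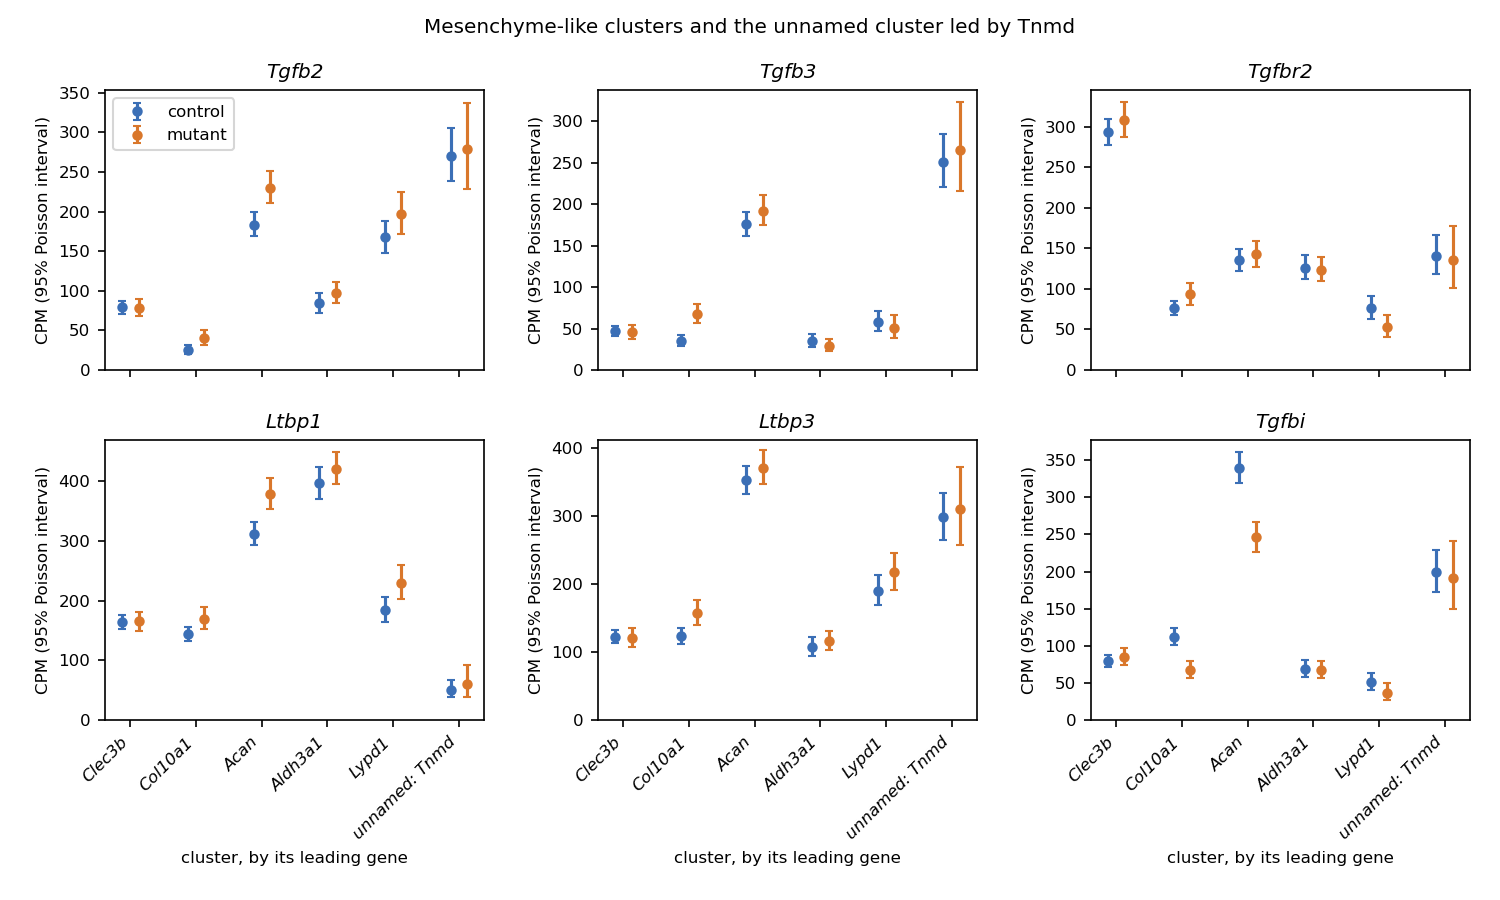
Levels (CPM with 95% Poisson intervals) of members in the mesenchyme-like clusters of the control and the mutant library. The cluster led by Acan had the highest Ltbp3 and Tgfbi, that led by Clec3b the highest Tgfbr2, and that led by Aldh3a1 the highest Ltbp1.

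The question for the genotypes was whether these levels differed without Myrf, above all in RPE. A gene was counted as past the fold in a class when it had at least 50 UMIs over both libraries and its levels differed at least 1.5-fold. The fold was taken after 1 CPM had been added to each level, which shrinks it for genes at a few CPM. Over the 12 classes of the map, 64 pairs of member and class reached 50 UMIs. Of these, 9 were past the fold, 3 higher and 6 lower in the mutant, while over all genes the share past the fold ran from 2.65% in mesenchyme to 16.3% in RPE. The pairs are therefore read class by class.

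In RPE, 2 of the 8 members with 50 UMIs were past the fold, Tgfb2 higher and Ltbp1 lower. Of all 8952 genes measured in RPE, 16.3% were past the fold, 5.92% higher and 10.4% lower, so 2 of 8 lay near that background. The median log2 ratio of the 8 members was -0.12, beside -0.01 over all genes. Tgfb2 stood at 45.4 CPM (38.3 to 53.4) in control cells and 72.9 CPM (62.5 to 84.5) in mutant cells, with a log2 ratio of 0.67 (0.36 to 1.01). After thinning to 1000 UMIs, 5.18% of control and 6.82% of mutant RPE-like cells held a Tgfb2 UMI, with overlapping intervals (3.19 to 7.89 and 3.57 to 11.6). The unthinned shares were 16.3% and 46.2%. The log2 ratio was 0.28 over the thinned cells and 1.28 over cells with at most 5% mitochondrial UMIs. In thinned red blood-like cells the share was 0.885% and 1.20%. Unthinned, red blood-like cells held 3 control and 11 mutant Tgfb2 UMIs, under the floor of 50. These came to 3.21 and 12.2 CPM, a log2 ratio of 1.65 (0.004 to 4.41), higher in the mutant as in RPE. The part of free RNA in the Tgfb2 difference in RPE was not tested.

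Ltbp1 in RPE had 97 control and 43 mutant UMIs and a log2 ratio of -0.72 (-1.30 to -0.22). Ltbp3 went the other way, with 218 and 233 UMIs and a log2 ratio of 0.51 (0.25 to 0.79), below the 1.5-fold mark. Over all RPE-like cells Ltbp1 was thus lower and Ltbp3 higher in the mutant, which was not the case in each kind of cell described below by sex-linked transcripts. The 3 receptors stood nearer to 0 in RPE: Tgfbr1 at -0.35 (-0.83 to 0.09), Tgfbr2 at -0.17 (-0.86 to 0.49) and Tgfbr3 at 0.16 (-0.20 to 0.53). Tgfb3 at -0.21 (-0.84 to 0.38) and Tgif2 at -0.07 (-0.70 to 0.54) had intervals that included 0 as well.

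**Figure D4:**
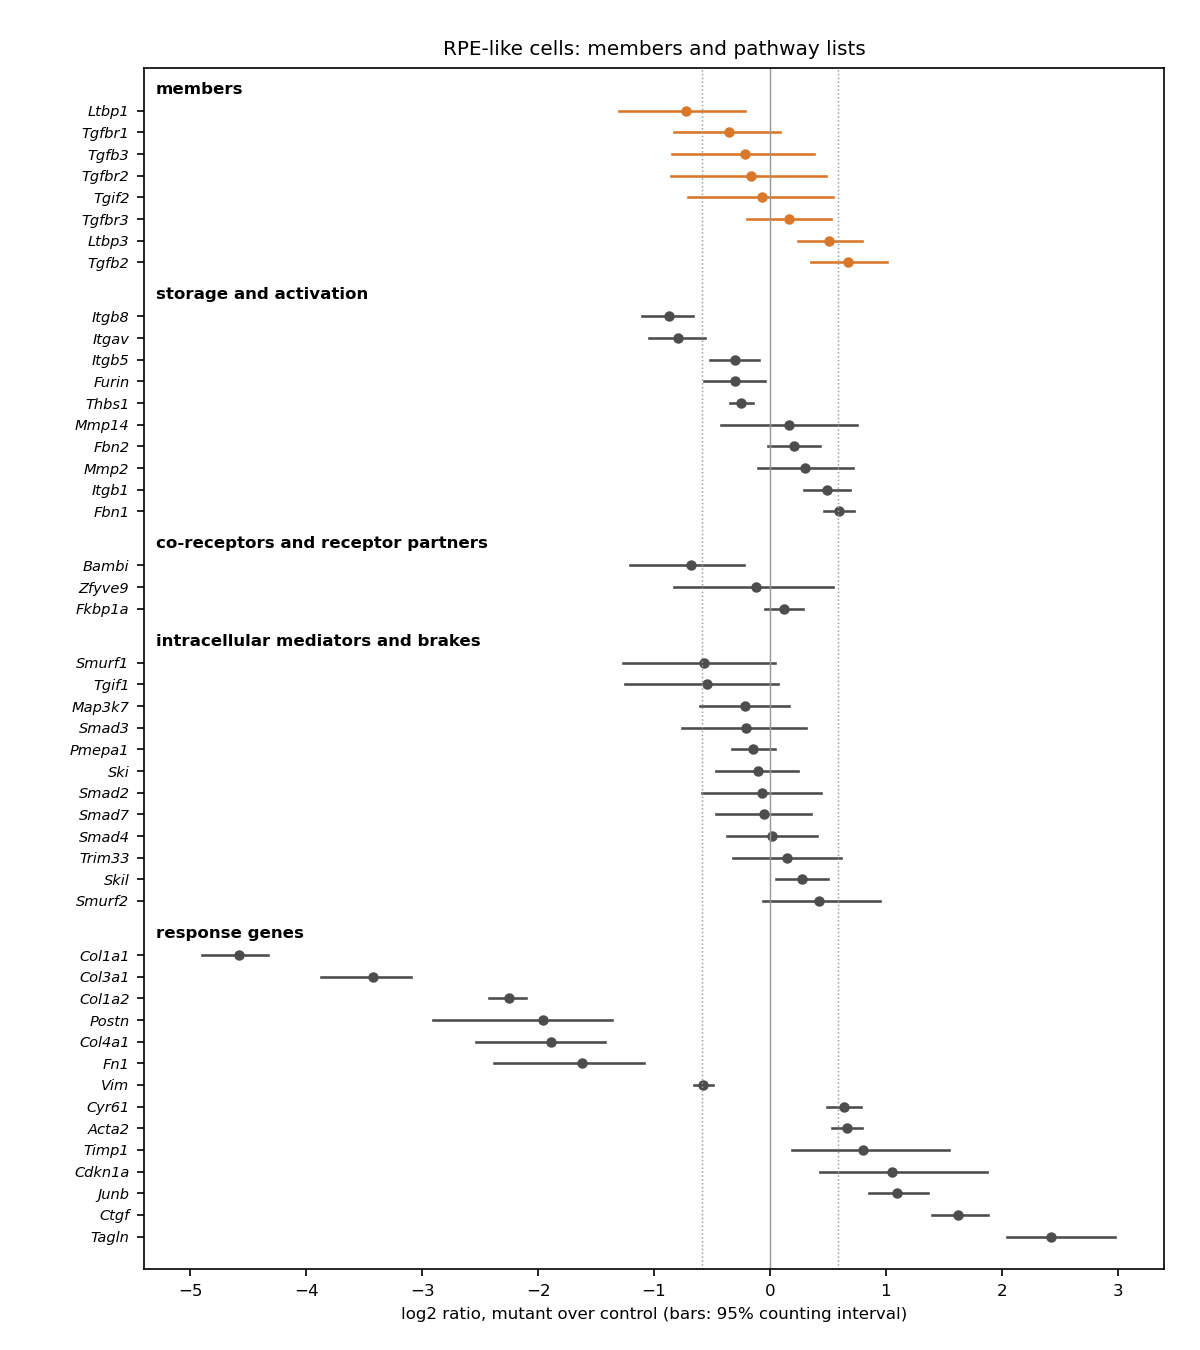
Log2 ratio, mutant over control, of the members and of the measured pathway genes in RPE-like cells, with 95% counting intervals and dotted lines at 1.5-fold. Among the members Tgfb2 at 0.67 and Ltbp1 at -0.72 lie past the limits, Ltbp3 at 0.51 lies above 0 but inside them, and the intervals of the other 5 include 0.

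The RPE values moved with sex-linked transcripts. Among RPE-like cells that held Xist but lacked Y-linked UMIs (81 control and 78 mutant cells), Tgfb2 stood at 14.4 CPM in the control, from 13 UMIs, and 77.0 CPM in the mutant, from 113 UMIs, a log2 ratio of 2.34 (1.59 to 3.37). Among those with a Y-linked UMI and no Xist (126 and 36 cells), it stood at 65.1 and 68.9 CPM, a log2 ratio of 0.08 (-0.52 to 0.66). The remaining cells, with UMIs of both kinds or of neither (277 and 85 cells), had 41 and 27 Tgfb2 UMIs, 45.4 and 63.5 CPM, a log2 ratio of 0.47 (-0.27 to 1.22). The control was thus low in cells with Xist, and in the other kinds of cell the interval of the ratio included 0 at this depth. Ltbp3 showed 49.9 and 110 CPM in cells with Xist, a log2 ratio of 1.12, and 84.2 and 96.4 CPM in cells with a Y-linked UMI, a log2 ratio of 0.19. In the remaining cells it stood at 59.8 and 54.1 CPM, -0.14 (-0.92 to 0.58). Ltbp1 stood at 13.3 and 12.3 CPM in cells with Xist, -0.11 (-1.25 to 1.07), and at 38.2 and 43.3 CPM in cells with a Y-linked UMI, 0.18 (-0.61 to 0.92). In the remaining cells it was lower, with 31 and 3 UMIs and -2.13 (-4.64 to -0.60). Tgfbr1 had a ratio of 0.29 (-0.45 to 1.09) in cells with Xist and -0.67 (-1.73 to 0.23) in cells with a Y-linked UMI, and it was lower in the remaining cells, with 35 and 7 UMIs and -1.19 (-2.65 to -0.04). The other 4 measured members had intervals that included 0 in each kind of cell. In cells with Xist, with a Y-linked UMI and in the remaining cells the ratios of Tgfb3 were -0.21, -0.54 and -0.46, those of Tgfbr2 0.11, -0.96 and -0.13, those of Tgfbr3 0.37, 0.41 and -0.84, and those of Tgif2 0.27, -0.15 and 0.42. Xist was found in 16.7% of control and 39.2% of mutant RPE-like cells by the same rule. The difference between the kinds of cell was not tested, nor was its cause.

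**Figure D5:**
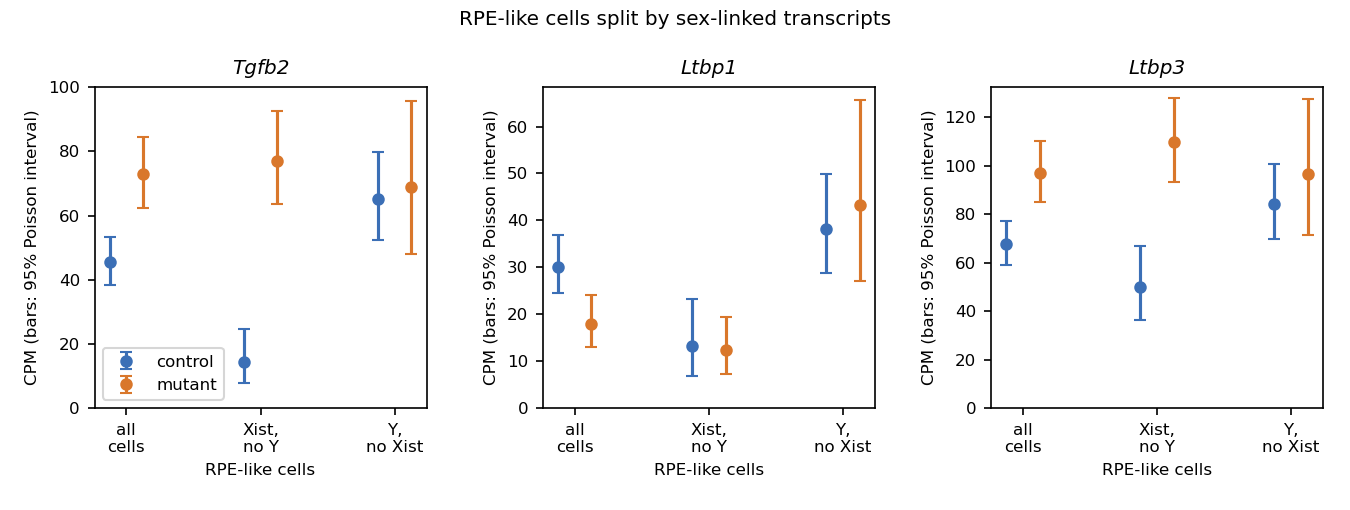
Levels (CPM with 95% Poisson intervals) of Tgfb2, Ltbp1 and Ltbp3 in RPE-like cells that held Xist but lacked Y-linked UMIs and in those with the reverse. For Tgfb2 the control cells with Xist sit alone at 14.4 CPM, while the other 3 groups lie between 65.1 and 77.0 CPM.

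The pooled RPE values were as large in the deepest cells, which held most of the UMIs. In RPE-like cells over 8000 UMIs (152 control and 117 mutant), the log2 ratios were 0.71 (0.36 to 1.09) for Tgfb2, -0.73 (-1.39 to -0.17) for Ltbp1 and 0.52 (0.23 to 0.81) for Ltbp3. Shallower cells had few UMIs and ratios whose intervals included 0. Those of up to 4000 UMIs gave 0.26 for Tgfb2, -0.90 for Ltbp1 and -0.13 for Ltbp3, and those above that and up to 8000 UMIs gave 1.04, 0.34 and -0.57. Stromal transcripts counted in RPE also differed between the libraries. A set of 5 collagen and proteoglycan genes of mesenchyme (Col1a1, Col1a2, Col3a1, Dcn and Lum) stood in RPE at 2.78% to 4.94% of their mesenchyme level in the control and at 0.15% to 1.28% in the mutant. By the same measure Ltbp1 in RPE stood at 13.4% and 6.43% of its mesenchyme level, and Ltbp3 at 38.9% and 50.1%. The 10 mesenchyme markers summed to 135 CPM in control RPE, where all 10 had a UMI, and to 52.1 CPM in mutant RPE, where 8 did and Twist2 and Foxc2 were at 0. The part of free RNA in the Ltbp1 difference was not tested.

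In the neural retina 3 pairs of member and class were past the fold, Tgfbr2 in progenitors and Ltbp1 and Tgif2 in amacrine-like cells, all lower in the mutant and at low levels. Of 7 members measured in retinal progenitor-like cells, 1 was past the fold, beside 3.14% of all genes there. It was Tgfbr2, with 68 and 36 UMIs and a log2 ratio of -0.87 (-1.84 to -0.62), and its level was not above that of red blood-like cells. Progenitors with a Y-linked UMI had 42 and 6 Tgfbr2 UMIs, -0.75 (-2.56 to 0.20), those with Xist 1 and 21, too few in the control for a comparison, and the remaining ones 25 and 9, -0.20 (-1.55 to 0.88). In the same cells the 5 stromal genes stood at 1.61% to 4.00% of their mesenchyme level in the control and at 0.327% to 0.383% in the mutant, and Tgfbr2 at 2.35% and 1.02%. Tgfb2 was higher in the mutant, with a log2 ratio of 0.27 (0.19 to 0.34), which lay under the fold. Within retinal progenitor-like cells with a Y-linked UMI the Tgfb2 ratio was 0.34 (0.20 to 0.48). In the remaining progenitors it was 0.32 (0.16 to 0.48). Those with Xist numbered 73 in the control and 3124 in the mutant, with 93.6 and 168 CPM.

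Neurogenic cells had 0 of 6 members past the fold (3.64% of all genes) and photoreceptor-like cells 0 of 4 (4.25% of all genes). Tgfb2 in neurogenic cells had a log2 ratio of 0.24 (0.04 to 0.44). Amacrine-like cells had 2 of 5, both lower, beside 5.21% of all genes. These were Ltbp1, with 36 and 20 UMIs and a log2 ratio of -1.19 (-2.22 to -0.52), and Tgif2, with 44 and 38 UMIs and -0.66 (-1.38 to -0.05), which became 0.03 after thinning. Both rest on low levels, 11.9 and 4.66 CPM for Ltbp1, and the control had only 16 amacrine-like cells with Xist, which held 0 UMIs of either gene against 15 of Ltbp1 and 27 of Tgif2 in 528 mutant cells. Amacrine-like cells with a Y-linked UMI had ratios of -1.24 (-3.77 to 0.30) for Ltbp1 and -0.94 (-3.02 to 0.48) for Tgif2, and the remaining cells -1.39 (-4.85 to 0.61) and -0.55 (-2.09 to 0.76). The stromal genes there stood at 1.51% to 3.79% of their mesenchyme level in the control against 0.227% to 0.348% in the mutant. Ltbp1 in amacrine-like cells stood at 5.27% and 1.67%.

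In mesenchyme, 0 of 10 members were past the fold, beside 2.65% of all genes, and the median log2 ratio of the members was 0.07. Small differences were nevertheless well counted. Tgfb2 was higher with a log2 ratio of 0.33 (0.22 to 0.44), Ltbp1 with 0.30 (0.23 to 0.38), Tgfb3 with 0.19 (0.06 to 0.33) and Ltbp3 with 0.15 (0.07 to 0.24). Tgfbi was lower with -0.32 (-0.43 to -0.22), Tgfbr3 with -0.33 (-0.52 to -0.16) and Tgif2 with -0.38 (-0.73 to -0.10), and Tgfbr2 stood at -0.01 (-0.10 to 0.08). With the clusters weighed as in the control, the ratios were 0.24 for Tgfb2, 0.17 for Ltbp1, -0.35 for Tgfbi and -0.21 for Tgfbr3. The lower Tgfbi lay in the cluster led by Acan, at -0.46 (-0.61 to -0.32), and in that led by Col10a1, at -0.72 (-1.02 to -0.45), while those led by Clec3b, Aldh3a1 and Lypd1 had intervals that included 0, the last with -0.44 (-1.03 to 0.10). Tgfb3 in the cluster led by Col10a1 stood at 35.2 and 67.5 CPM, a log2 ratio of 0.92 (0.58 to 1.30). By sex-linked transcripts, Tgfb2 in mesenchyme had a ratio of 0.00 (-0.17 to 0.17) in cells with Xist and 0.54 (0.36 to 0.73) in cells with a Y-linked UMI, the reverse of the order in RPE. Ltbp3 was on opposite sides of 0, with -0.14 (-0.27 to -0.01) in cells with Xist and 0.31 (0.17 to 0.45) in cells with a Y-linked UMI, and Tgfbr3 stood at 0.09 (-0.23 to 0.42) and -0.42 (-0.75 to -0.13). Tgfbi was past the fold in cells with Xist, at -0.63 (-0.80 to -0.48), and stood at -0.17 (-0.36 to 0.01) in cells with a Y-linked UMI, and Tgif2 stood at -0.63 (-1.15 to -0.20) and -0.31 (-0.90 to 0.21). Ltbp1 was higher in both, at 0.23 (0.12 to 0.35) and 0.37 (0.25 to 0.49). Tgfb3 stood at 0.33 (0.11 to 0.55) and 0.07 (-0.16 to 0.29), and Tgfbr2 at 0.26 (0.11 to 0.42) and -0.16 (-0.32 to -0.01). In the remaining 277 control and 142 mutant cells the ratios were 0.28 (0.01 to 0.56) for Tgfb2, 0.32 (0.13 to 0.51) for Ltbp1, 0.35 (0.14 to 0.57) for Ltbp3, -0.46 (-0.91 to -0.05) for Tgfbr3 and -0.23 (-0.51 to 0.04) for Tgfbi, and the intervals of Tgfb3 (0.13), Tgif2 (-0.22) and Tgfbr2 (0.00) included 0. These differences between kinds of cell were not tested.

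Vessel, immune and epithelial classes each had at most 1 member past the fold. In pericyte-like cells it was Tgfbi, 1 of 4 (9.08% of all genes), with 49 and 66 UMIs and a log2 ratio of 0.65 (0.11 to 1.23), which turned to -1.08 after thinning and to -0.43 at a coarser clustering, whose pericyte-like cluster was larger (438 and 251 cells, against 85 and 67) and had Col10a1, Alpl and Alkal2, leading genes of a mesenchyme-like cluster, among its top genes. It stood at 0.67 (-0.23 to 1.65) in pericyte-like cells with Xist 0.24 (-0.87 to 1.31) in those with a Y-linked UMI and 1.10 (-0.02 to 2.27) in the remaining ones. In endothelial-like cells it was Ltbp3, 1 of 9 (7.43% of all genes), with 51 and 14 UMIs and -0.93 (-1.99 to -0.15), which turned to 0.27 when every cell weighed the same, while Tgfbr2 was higher at 0.29 (0.11 to 0.47). The 5 stromal genes stood in endothelial-like cells at 1.91% to 3.57% of their mesenchyme level in the control and at 0.125% to 0.188% in the mutant, and Ltbp3 at 8.67% and 3.84%. Endothelial-like cells with Xist had Ltbp3 at -0.44 (-1.97 to 1.07) and Tgfbr2 at 0.45 (0.10 to 0.81), and those with a Y-linked UMI had -2.60 (-8.45 to -0.54) and -0.16 (-0.51 to 0.18). The remaining endothelial-like cells had -0.32 (-2.99 to 1.87) and 0.76 (0.33 to 1.20). In macrophage-like cells it was Tgfbr1, 1 of 4 (12.9% of all genes), with 101 and 70 UMIs in 262 and 68 cells, 59.3 and 105 CPM, and a log2 ratio of 0.82 (0.37 to 1.28). It was higher in macrophages with Xist, 1.72 (0.77 to 2.86), and in those with a Y-linked UMI, 1.06 (0.36 to 1.74). The remaining 136 control and 17 mutant cells had 21 and 1 UMIs, 52.3 and 10.4 CPM, a ratio of -2.23 (-7.71 to 0.30) on the other side of 0. Macrophage-like cells had a median depth of 2758 UMIs among control cells and of 8776 among mutant ones. The 10 RPE markers in them summed to 488 and 45.1 CPM (8 and 6 with a UMI), and the 10 mesenchyme markers to 129 and 4.51 CPM (10 and 3 with a UMI). After thinning the Tgfbr1 ratio was 0.82, and the part of other cells' RNA in it was not tested. Tgfbi was also higher in macrophages, with a log2 ratio of 0.46 (0.19 to 0.73). In surface epithelium it was Ltbp3, 1 of 5 (11.9% of all genes), with 47 and 16 UMIs and -0.94 (-1.89 to -0.13), with -0.65 (-2.05 to 0.80) in cells with Xist, -1.90 (-7.34 to 0.59), from 31 and 1 UMIs, in cells with a Y-linked UMI and -0.69 (-3.99 to 1.60) in the remaining ones. The stromal genes in surface epithelium stood at 3.97% to 13.8% of their mesenchyme level in the control and at 0% to 0.111% in the mutant. Ltbp3 there stood at 21.6% and 9.88%. Muscle-like cells had 0 of 2 (13.5% of all genes), and no member reached 50 UMIs in red blood-like cells.

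The rest of the pathway in RPE was described with 4 lists, to be read beside the 16.3% of all genes past the fold there, 5.92% higher and 10.4% lower. Of 17 genes that store or activate TGF-beta, 10 were measured, with 1 higher and 2 lower past the fold and a median log2 ratio of -0.04. Fbn1, the fibrillin that holds the latent complex, stood at 283 and 428 CPM (0.59), but at a ratio of -0.23 in cells of at most 2000 UMIs. Itgb8 and Itgav, subunits of an integrin that frees TGF-beta, stood at 185 and 101 CPM (-0.87) and at 145 and 83.3 CPM (-0.79). Of 7 co-receptors and receptor partners, 3 were measured and Bambi, a pseudoreceptor that blocks signalling, was lower with 36.1 and 22.1 CPM (-0.68), which turned to 0.30 after thinning. Of 12 intracellular mediators and brakes, the SMAD genes among them, all 12 were measured and 0 were past the fold, with a median of -0.08.

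Of 18 genes known to respond to TGF-beta, 14 were measured in RPE, 7 were higher and 6 lower past the fold, and the median log2 ratio was 0.03. Those higher were led by Tagln, an actin-binding protein of smooth muscle (15.5 and 87.9 CPM, 2.43), Ctgf, a matrix-associated growth factor (64.7 and 201 CPM, 1.62), Junb, an early-response transcription factor (65.0 and 140 CPM, 1.10), and Cdkn1a, an inhibitor of the cell cycle (8.70 and 19.2 CPM, 1.06). Those lower were led by the fibrillar collagens Col1a1 (1088 and 44.6 CPM, -4.58), Col3a1 (893 and 60 UMIs, -3.42) and Col1a2 (771 and 161 CPM, -2.25) and by Postn (32.0 and 7.50 CPM, -1.96), a matrix protein of mesenchyme. The list thus split in 2 directions, and 3 of the 4 named lower genes are among the 5 stromal genes above. All of these genes respond to other signals too. In RPE-like cells with Xist the ratios of Tagln (-0.37) and Cdkn1a (-0.49) were below 0. In cells of at most 2000 UMIs those of Tagln (-0.95) and Junb (-5.50) were below 0 as well. In mesenchyme 1 of the 49 measured genes of the 4 lists was past the fold, beside 2.65% of all genes. It was Snai2, a transcription factor of mesenchymal cells, at 24.2 and 37.7 CPM (0.62). In retinal progenitor-like cells, beside 3.14% of all genes, 3 of 11 storage genes were lower (Fbn1, Thbs1 and Mmp2), and of 16 response genes 5 were lower (Col1a1, Col1a2, Col3a1, Postn and Acta2) and Timp1 was higher. Of the 8 lower genes, 3 are among the 5 stromal genes, which were lower in progenitors as given above.

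The genes whose levels followed a member most closely over the 12 classes were named from 14247 genes by Pearson correlation of log2 levels in the control, as a description over 12 classes that share libraries. For Tgfb1 they were Il15 (0.97 in the control and 0.96 in the mutant), Tmem173 and Ifitm3. For Tgfb2 they were Plod2 (0.96 and 0.93), a collagen-modifying enzyme, Fam92a and Kdelc1, and for Tgfb3 Zfhx4 (0.88 and 0.85), Sobp and Fbxl22. Tgfbr1 was followed by Thada (0.95 and 0.49), Vps16 and 1600002K03Rik, so its best match in the control did not carry over to the mutant. Tgfbr2 was followed by Fam198b (0.95 and 0.90), Klf2 and Itga5, and Tgfbr3 by Hspb8 (0.98 and 0.91), Tnfrsf19 and Ccnd2. Ltbp1 was followed by Suox (0.95 and 0.56), Pdgfrl and Sspn, and Ltbp3 by Serpinf1 (0.96 and 0.84), P3h4 and Nenf. Tgfbi was followed by Ctsh (0.97 and 0.93), Rnase4 and Slc8b1, and Tgif2 by Smim11 (0.95 and 0.85), Polr2h and Eny2. Among the members themselves the closest pair in the control was Tgfbr3 and Ltbp3 (0.92, and 0.80 in the mutant). In the mutant it was Tgfb1 and Tgfbr2 (0.82, and 0.84 in the control). Ltbp1 and Ltbp3 (0.85 and 0.79) and Tgfb2 and Tgif2 (0.85 and 0.71) were alike in the control.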

How the data were processed

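UMI counts per gene and barcode were deposited by the authors as raw, unnormalized matrices from 10x 3′ libraries of pooled P0 eye cups. The submitters' processing notes name Cell Ranger 7.1.0, Seurat 4.1.1 and mm10, whereas the matrix headers name Cell Ranger 3.1.0, and the gene annotation is not given in the sources used here.

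Barcodes with at least 200 genes and at most 15% mitochondrial UMIs were kept. The study's limit of 2000 UMIs was an alternative only, since 80.2% of control and 92.1% of mutant barcodes lay above it. Scrublet (scanpy 1.11.5, Python 3.11.15) scored doublets, and its automatic threshold called 0% of the control and 5.46% of the mutant barcodes doublets. The highest scores were therefore removed at the expected rate of 11.4% and 9.78% (1646 and 1214 barcodes). Cells were clustered in Seurat 5.3.0 (R 4.3.3) with anchor integration, 30 components and a Louvain resolution of 1. The members, the pathway lists, the RPE and melanocyte markers and the sex-linked genes (88 listed genes) were kept out of the clustering. A cluster was named if at least 3 markers were counted, each in at least 10% of cells and at least 2-fold over the other clusters, if these were at least 50% of the list, and if no other class had more markers among the 10 leading genes. Shallow clusters also needed a marker there and markers holding at least 5% of UMIs. The limits on naming were set with the clusters in view. Clusters without a name (2683 control and 1490 mutant cells) entered no class.

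Counts were summed per class and library and scaled to 1000000 (CPM). Ratios of mutant to control are on the log2 scale with 1 CPM added to each side. For them, 95% intervals were taken from the plain ratio by the exact conditional Poisson method, those of CPM are exact Poisson and those of shares Clopper-Pearson. A count of 0 allows up to 3 counts. Shares were compared after thinning each cell to 1000 UMIs, which left out shallower cells. With 1 library per genotype no p-value was computed. The calculation was tested on simulated counts. Positions are from GENCODE M21 on GRCm38, and promoters from RefSeq on GRCm38.p6. All 10 members are named, and of each pathway list up to 4 genes in each direction past 1.5-fold in RPE. For each member the 3 best correlated genes are named. The members and the lists were chosen with earlier results of these data known. Alternatives covered the UMI and mitochondrial limits, doublets, depth, thinning, scaling, clustering, integration, sex-linked transcripts, the UMI floor and the fold.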

Additional observations from a re-analysis of the deposited data

Results flagged for a closer look

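Some members differed in opposite directions in different cell classes, with counting intervals apart from 0 in each. The difference between classes was not tested for any of them. Ltbp1 was lower in the mutant in RPE (log2 ratio -0.72), retinal progenitor-like cells (-0.41) and amacrine-like cells (-1.19) and higher in mesenchyme (0.30). Ltbp3 was higher in RPE (0.51) and mesenchyme (0.15) and lower in endothelial-like cells (-0.93) and surface epithelium (-0.94). Tgfbi was lower in mesenchyme (-0.32) and higher in pericyte-like cells (0.65) and macrophage-like cells (0.46). Tgfbr2 was lower in retinal progenitor-like cells (-0.87) and higher in endothelial-like cells (0.29). Several of these values turned direction under a setting: Ltbp1 in RPE with a Y-linked UMI (0.18), Ltbp3 in mesenchyme with Xist (-0.14) and in endothelial-like cells with equal weight per cell (0.27), Tgfbi in pericyte-like cells after thinning (-1.08) and at a Louvain resolution of 0.5 (-0.43), and Tgfbr2 in endothelial-like cells with a Y-linked UMI (-0.16). In cells of at most 2000 UMIs, Ltbp1 (-6.66) and Ltbp3 (-0.65) in mesenchyme turned as well. Ltbp1 in amacrine-like cells with Xist had 0 control UMIs, and Tgfbr2 in progenitors was not above red blood-like cells.

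Outside the 12 classes, Tgfb2 in the 31 control and 33 mutant astrocyte-like cells had a log2 ratio of 0.60 (0.33 to 0.89), from 155 and 352 UMIs. Among them, 1 control and 27 mutant cells held Xist but no Y-linked UMI, with 1 and 324 Tgfb2 UMIs. In the 25 control and 3 mutant cells with a Y-linked UMI and no Xist the ratio was -0.17 (-0.94 to 0.52), from 144 and 19 UMIs. Sex-linked kind and genotype cannot be told apart in this class.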

How the results depend on the processing

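Over 76 ratios of single genes and 14 settings, 772 of 937 values stayed within the interval of the reported ratio and 165 moved outside it. In all 110 values changed sign, 88 of them for ratios whose reported interval included 0. The other 22 are listed below, 13 for ratios past the fold and 9 for smaller ones. The cause was not tested unless named. The settings with cells over 8000 UMIs and with mesenchyme clusters weighed as in the control were chosen after seeing the data. Tgfb2 in RPE (0.67) was 1.23 in cells of at most 2000 UMIs, 1.28 at no more than 5% mitochondrial UMIs, 0.28 after thinning to 1000 UMIs, 2.34 in cells with Xist and 0.080 in cells with a Y-linked UMI. It stayed above 0 in each setting run. The count of members past the fold in RPE (2) was 0 in cells of at most 2000 UMIs, 0 after thinning, 1 in cells with a Y-linked UMI (Tgfbr1 at -0.67, not Tgfb2 or Ltbp1) and 0 at 2-fold. In retinal progenitor-like cells (1) it was 0 after thinning, 0 with 5 CPM added, 2 in cells with Xist (Tgfb2 and Ltbp1, not Tgfbr2), 0 in cells with a Y-linked UMI, 3 at a floor of 10 UMIs, 0 at 2-fold and 0 over 8000 UMIs. In mesenchyme (0) it was 1 after thinning and 2 in cells with Xist. The pathway genes past the fold in RPE (17) were 5 in cells of at most 2000 UMIs, 11 after thinning and 10 at 2-fold, where fewer genes can pass by construction. With at most 2000 UMIs per cell, 3 of 10 members in the control and 5 of 10 in the mutant kept their highest class. In the control the highest class also changed for Tgfb3, Tgfbr1 and Tgif2 after thinning (to pericyte, surface epithelium and pericyte), for Tgfb2 and Tgfbr1 in cells with Xist (to mesenchyme and retinal progenitor), for Tgfbr2 and Tgfbr3 at equal weight per cell and at a Louvain resolution of 0.5 (to mesenchyme), and for Tgfbr1 over 8000 UMIs (to photoreceptor). In the mutant it changed for Tgfbr3 at no more than 5% mitochondrial UMIs (to surface epithelium).

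Among ratios past the fold, directions turned for Ltbp1 in RPE with a Y-linked UMI (0.18), Ltbp1 in amacrine-like cells with Xist (2.54, with 0 control UMIs), Tgif2 in amacrine-like cells after thinning (0.027) and with Xist (3.28, with 0 control UMIs), Tgfbi in pericyte-like cells after thinning (-1.08) and at a Louvain resolution of 0.5 (-0.43), and Ltbp3 in endothelial-like cells with equal weight per cell (0.27). In RPE they turned for Fbn1 (-0.23), Tagln (-0.95) and Junb (-5.50) in cells of at most 2000 UMIs, for Bambi after thinning (0.30), and for Tagln (-0.37) and Cdkn1a (-0.49) with Xist. Among smaller ratios they turned in cells with Xist for Tgfbr1 in retinal progenitors (-0.12) and for Tgfb2 (-0.00068), Tgfbr3 (0.09) and Ltbp3 (-0.14) in mesenchyme, in cells of at most 2000 UMIs for Tgfbr3 (0.83), Ltbp1 (-6.66) and Ltbp3 (-0.65) in mesenchyme, after thinning for Tgif2 in mesenchyme (0.08), and with a Y-linked UMI for Tgfbr2 in endothelial-like cells (-0.16). Ratios resting on fewer than 10 UMIs under a setting were left out. No paired analysis was possible because each genotype had 1 library. Depth limits the small classes and the genes at a few CPM, and no replicate shows the spread between animals.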

Other observations

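The 4 classes with fewer than 50 cells in a library held further high levels of the members, given as values only. Astrocyte-like cells had Ltbp3 at 137 CPM (104 to 177) in the control and 174 CPM (142 to 210) in the mutant, beside their Tgfb2. Melanocyte-like cells (30 control and 18 mutant cells) had Tgfbr2 at 81.7 CPM from 46 UMIs and 51.5 CPM from 17 UMIs, and Tgfb1 at 49.7 and 24.2 CPM. Peripheral glia-like cells (21 and 20 cells) had Tgfbr3 at 106 and 105 CPM from 12 and 14 UMIs, and Tgfbr2 at 88.2 and 105 CPM from 10 and 14 UMIs. Lens-like cells were found only in the control library, 68 cells, and held 2 Tgfb2 UMIs.

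Clusters that received no name held 13.8% of control and 7.56% of mutant Tgfb2 UMIs and 20.9% and 13.9% of Tgfb3 UMIs. The unnamed cluster led by Tnmd also had Ltbp3 at 298 and 311 CPM, Tgfbi at 199 and 191 CPM, Tgfbr2 at 141 and 135 CPM and Tgfbr1 at 74.5 and 66.4 CPM.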
